A study of Equus caballus with 2 samples.

Results

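Transcripts of 6 matrix metalloproteinases (MMPs) and of the 4 tissue inhibitors of metalloproteinases (TIMPs) were followed in equine endometrial fibroblasts with and without TGF-β1. The genes were taken by symbol, from a list drawn up with earlier results of these data known, as MMP1, MMP2, MMP9, MMP14, MMP16, MMP19 and TIMP1 to TIMP4. All 10 symbols were listed, in 11 of the 21426 gene rows of each library, since 2 rows carry the symbol TIMP2. The cells came from the endometrium of 4 mares at the mid-luteal stage graded Kenney and Doig category I or IIA, the mildest grades of endometrial degeneration. The tissue was abattoir material, and the cells were used at passage 3 on collagen-coated hydrogels. In medium with 0.1% BSA, the control cells were left without any addition, and the treated cells were given human recombinant TGF-β1 at 10 ng/ml over 24 h. The mares' cells were pooled for each condition before loading, and each pool gave 1 library of 3′ transcript ends. Molecules were counted by their unique molecular identifier (UMI), a random tag attached before amplification. A library with MFGE8 was not analysed here.

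MMPs are zinc-dependent endopeptidases that cut collagens and other proteins of the extracellular matrix. Most are secreted as inactive proenzymes, while membrane-type MMPs such as MMP14 and MMP16 stay anchored in the plasma membrane. TIMPs bind the active site of MMPs and block it, and TIMP2 also joins MMP14 in the cell surface complex that activates the proenzyme of MMP2. In the endometrium the balance of these proteases and inhibitors belongs to cyclic tissue remodelling, and in the mare it is of interest for endometrosis, a fibrosis of the endometrium.

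Kept were cells that had 20000 or more UMIs, 3500 or more genes and a mitochondrial share under 4%. These were 3865 of 4384 control barcodes with a median of 50313 UMIs and 4513 of 5124 TGF-β1 barcodes with a median of 43142 UMIs. The fibroblast label was met by the markers, as COL1A1, COL1A2 and VIM were found in every kept cell of both libraries and the 9 fibroblast markers summed to 21710 and 21790 CPM, that is, counts scaled to a total of 1000000 UMIs per library. Within that sum COL1A1 was higher after TGF-β1 (5608 and 6376 CPM), while VIM (4399 and 2240), THY1 (216 and 87.5), PDGFRB (80.1 and 49.0) and PDGFRA (50.5 and 16.7) were lower, and their part in the results was not tested. The leukocyte antigen PTPRC had 1 control UMI and 0 after TGF-β1, and the 7 immune markers found summed to 56.7 and 52.9 CPM, mostly CD68 (in 57.0% and 55.4% of thinned cells) and CD14 (24.7% and 18.3%). The 6 pericyte and smooth muscle markers summed to 748 and 659 CPM, mostly DES, and the 6 endothelial markers to 1.48 and 1.58 CPM. The 6 epithelial markers found summed to 134 CPM in the control library and 12.3 CPM after TGF-β1, of which KRT8 was 114 and 4.48 CPM and KRT7 19.3 and 7.05 CPM, with 1 and 3 UMIs of EPCAM. The libraries had 6 barcodes in common, 2 of them among the kept cells. A single pooled library stood for each condition, so no test was possible, no p-value is given, and the effect of TGF-β1 and the difference between any 2 libraries cannot be told apart. The 95% intervals are exact binomial intervals that cover counting error only, and do not hold the spread between mares or cultures. Those of ratios and of MMP shares treat UMIs as independent, so they do not hold the spread between cells either. They are too narrow for genes concentrated in few cells, such as MMP1 and MMP9.

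After TGF-β1, TIMP1 was one of the most abundant transcripts of the cells. The collagenase MMP1 and the gelatinase MMP9 were about 3 times as frequent as in the control library but remained rare. MMP2, the most abundant MMP member, was moderately higher. TIMP2, TIMP3 and MMP19 were lower, and the ratio of MMP14 was within counting error. Of the 9 members whose mean reached 1 CPM, 3 (33.3%) were over 2-fold higher, namely MMP1, MMP9 and TIMP1, and 0 were over 2-fold lower. Among all 12116 genes at that level, 6.91% were past 2-fold, 3.45% higher and 3.46% lower. The counting interval of the log2 ratio lay above 0 for 5 of the 9 members and below 0 for 3, and at this depth it did so for 39.5% and 42.2% of all 12116 genes. At a mean of 10 CPM or more, 1 of 5 members (TIMP1) and 339 of 7658 genes (4.43%) were past 2-fold. The median log2 ratio was 0.41 over the 9 members and -0.01 over all 12116 genes.

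**Figure D1:**
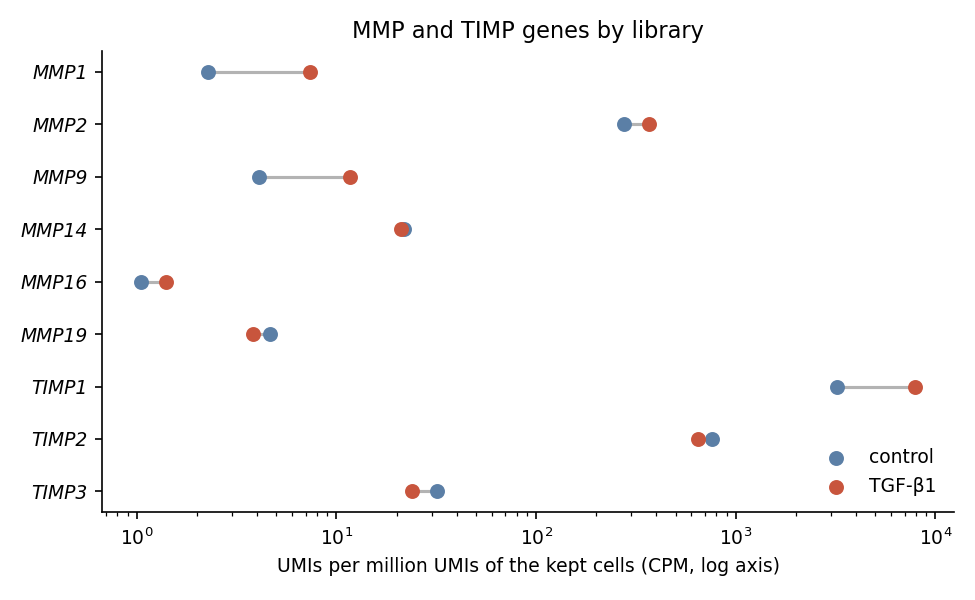
Level of 9 members in the control library (blue) and the TGF-β1 library (red), 1 point per library, as CPM summed over the kept cells on a log axis. The widest gaps are those of MMP1 (2.27 to 7.38 CPM), MMP9 (4.07 to 11.7 CPM) and TIMP1 (3196 to 7898 CPM); TIMP4, with 0 and 3 UMIs, is left out.

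MMP1 (ENSECAG00000046821) is the interstitial collagenase, which opens the triple helix of fibrillar collagens. It had 478 UMIs in the control library and 1622 after TGF-β1, or 2.27 and 7.38 CPM. The ratio was 3.25-fold, a log2 ratio of 1.70 (interval 1.55 to 1.85), and only 135 of the 12116 genes had a higher one.

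MMP2 (ENSECAG00000000953) and MMP9 (ENSECAG00000013081) are the gelatinases, which degrade denatured collagen and type IV collagen. MMP2 stood at 276 CPM without and 367 CPM with TGF-β1, which gives a log2 ratio of 0.41 (0.40 to 0.43). MMP2 was the most abundant member among the proteases, with 89.1% of the UMIs of the 6 MMP members in the control library and 89.0% after TGF-β1, or 85.5% and 86.5% of those of all MMP symbols listed. A UMI count from the 3′ end gives 1 UMI per molecule whatever the transcript's length. On this scale MMP2 stood far above every other gene listed with an MMP symbol in both libraries. No row carried the symbol MMP3 or MMP10, and 5196 rows had no symbol, so an MMP without a symbol would be missed. MMP9 had 857 and 2560 UMIs, or 4.07 and 11.7 CPM. Its log2 ratio was 1.52 (1.40 to 1.63), and its share of the UMIs of the 6 MMP members was 1.31% in the control library and 2.82% after TGF-β1.

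Of the membrane-type proteases, MMP14 (ENSECAG00000008351), the activator of proMMP2, had 21.7 CPM without and 21.1 CPM with TGF-β1, and the interval of its log2 ratio held 0 (-0.04, -0.10 to 0.02). MMP16 (ENSECAG00000019036) was near the lower limit of 1 CPM with 221 and 307 UMIs, a log2 ratio of 0.41 (0.16 to 0.67). MMP19 (ENSECAG00000010967), a secreted protease of basement membrane proteins, had 4.63 and 3.83 CPM, a log2 ratio of -0.27 (-0.41 to -0.14).

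TIMP1 (ENSECAG00000014259), a secreted inhibitor of most MMPs, had 672670 UMIs in the control library and 1735499 after TGF-β1. That is 3196 and 7898 CPM, a 2.47-fold ratio or 1.31 on the log2 scale (1.30 to 1.31). By level TIMP1 ranked 56 of 12116 genes in the control library and 4 after TGF-β1. TIMP2 moved the other way, with 761 CPM without and 647 CPM with TGF-β1, for a log2 ratio of -0.23 (-0.24 to -0.22). Its UMIs came almost all from 1 of its rows, ENSECAG00000060149, with 159945 and 141860 UMIs. The row ENSECAG00000011834 had 172 and 267 UMIs and a log2 ratio of 0.57 (0.29 to 0.86). How the authors' counting divided transcripts between these rows of 1 symbol is uncertain, and the ratio of the minor row is therefore uncertain too. TIMP3 (ENSECAG00000018314), the inhibitor that binds to the matrix, had 31.8 and 24.0 CPM, a log2 ratio of -0.41 (-0.46 to -0.35). TIMP4 (ENSECAG00000011609) had 0 UMIs in the control library and 3 after TGF-β1, at the floor of 3 UMIs per library (0.0143 and 0.0137 CPM), and is given no ratio.

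Summed over the members, MMP transcripts were 310 CPM in the control library and 413 CPM after TGF-β1 (log2 ratio 0.41, 0.40 to 0.43), and TIMP transcripts were 3988 and 8569 CPM (1.10, 1.10 to 1.11). The higher TIMP sum was that of TIMP1, since the TIMPs without it summed to 792 and 671 CPM, a log2 ratio of -0.24 (-0.25 to -0.23). TIMP1 made up 80.1% of the TIMP UMIs in the control library and 92.2% after TGF-β1, and TIMP2 made up 19.1% and 7.55%.

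Single cells were compared after random thinning of every kept cell to 20000 UMIs. TIMP1 was then found in 100% of the cells of both libraries. Its median was 47 UMIs per cell in the control library and 131 after TGF-β1, its 10th percentile 20 and 54, and its 90th percentile 123 and 306. The distributions overlapped, but 92.9% of TGF-β1 cells lay above the control median and 53.2% above the control 90th percentile. The MMP2 median was 5 UMIs in the control library and 7 after TGF-β1, and 61.0% of TGF-β1 cells lay above the control median. The TIMP2 median was 14 and 12 UMIs, and 59.2% of TGF-β1 cells lay below the control median. TIMP1 and MMP2 were thus higher, and TIMP2 lower, over the body of the cells and not only in their means.

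**Figure D2:**
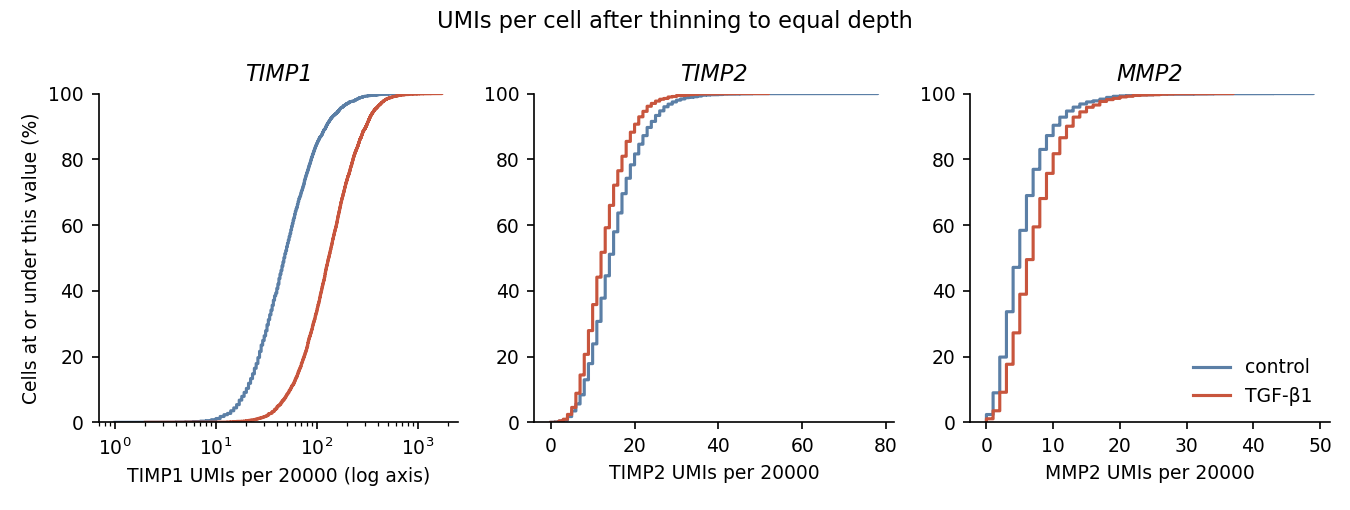
Share of cells at or under each number of TIMP1, TIMP2 and MMP2 UMIs after thinning to 20000 UMIs per cell, for 3865 control cells (blue) and 4513 TGF-β1 cells (red); the TIMP1 axis is a log axis. The TGF-β1 curve lies to the right for TIMP1 (medians 47 and 131) and MMP2 (5 and 7) and to the left for TIMP2 (14 and 12).

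The remaining members were found in part of the cells. MMP1 was found in 1.76% of the thinned control cells (1.37 to 2.23) and 3.32% of TGF-β1 cells (2.82 to 3.89), against 3.21% and 5.23% without thinning. MMP9 was found in 5.41% (4.72 to 6.17) and 11.2% (10.3 to 12.2), against 13.1% and 20.9% without thinning. Both were thus seen in a larger share of cells after TGF-β1, whether or not the cells were thinned. TIMP3 was found in 32.0% of control cells (30.5 to 33.5) and 27.1% of TGF-β1 cells (25.9 to 28.5), and MMP19 in 9.26% (8.37 to 10.2) and 7.36% (6.61 to 8.16), against 52.2% and 41.95% and 20.2% and 16.0% without thinning. Counted by intervals that did not overlap, 4 members had a larger share after TGF-β1 (MMP1, MMP2, MMP9 and MMP16) and 3 a smaller one (MMP14, MMP19 and TIMP3), against 27.5% and 25.6% of all 12116 genes. Those with a smaller share were 2 with another seed, 1 with thinning to 10000 UMIs (TIMP3) and 3 without thinning. For MMP14 (34.1% and 31.1%) and MMP16 (1.501% and 2.48%) this depended on the draw of the thinning: with another seed the shares were 32.7% and 32.1%, and 1.76% and 2.37%, and the intervals overlapped. Without thinning MMP14 was again lower (60.3% and 54.95%), and the intervals of MMP16 overlapped (3.57% and 4.32%). TIMP4 was found in 0 of 3865 control cells, which allows up to 0.0954% of cells with a UMI at this depth and sets no limit on the cells that express it, and in 1 TGF-β1 cell. No cell type in these libraries is known to lack the proteases, so the share that free RNA in the droplets gives was not measured.

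The balance of proteases and inhibitors was taken as the share of MMP UMIs among the MMP and TIMP UMIs of the thinned cells. Pooled over cells, the share was 7.30% (7.21 to 7.39) in the control library and 4.51% (4.46 to 4.55) after TGF-β1, or 12.7 and 21.2 TIMP UMIs per MMP UMI. Both sides were higher after TGF-β1, the MMP UMIs with a mean of 6.28 and 8.23 per cell and the TIMP UMIs with a mean of 79.8 and 174. Cell by cell the median share was 7.35% (10th to 90th percentile 2.17% to 17.8%) and 4.60% (1.52% to 11.5%), and 73.7% of TGF-β1 cells lay below the control median. MMP UMIs outnumbered TIMP UMIs in 4 control cells and 3 TGF-β1 cells.

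The direction of this balance turned on TIMP1. Without TIMP1 the MMP share was 28.5% (28.2 to 28.8) in the control library and 37.9% (37.6 to 38.3) after TGF-β1, and cells in which MMP UMIs outnumbered those of the other TIMPs were 8.56% and 17.6%. The difference, TGF-β1 minus control, was -2.79 percentage points with TIMP1 and 9.41 without it. TIMP2 UMIs per MMP2 UMI were 2.72 in the control library and 1.80 after TGF-β1. TIMP1 UMIs per TIMP2 UMI were 4.22 and 12.4, and the cells with more TIMP2 than TIMP1 were 169 (4.37%) in the control library and 4 (0.0886%) after TGF-β1. After TGF-β1 nearly every cell thus held more TIMP1 than TIMP2.

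**Figure D3:**
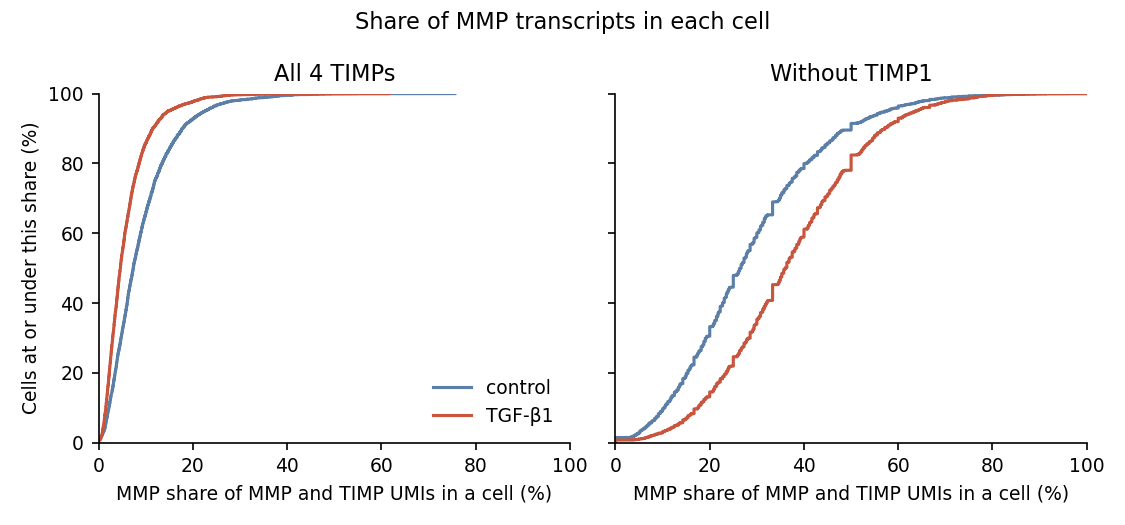
Share of cells at or under each MMP share of the MMP and TIMP UMIs of a thinned cell, with all 4 TIMPs (left) and without TIMP1 (right), for control (blue) and TGF-β1 (red). With TIMP1 the TGF-β1 curve lies at lower shares (medians 7.35% and 4.60%), and without TIMP1 at higher shares (medians 26.5% and 36.0%).

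The cells were next compared within 8 clusters, which were built without the member genes so that these had no part in forming them. The MMP share was lower after TGF-β1 in 8 of 8 clusters, and the intervals did not overlap in 7. The exception was the cycling-like cluster 6, in which all 9 cycling markers found were over 2-fold higher than in the other cells, with 4.14% (3.81 to 4.48) and 3.76% (3.55 to 3.98). TIMP1 was higher in every cluster, with log2 ratios from 0.99 in cluster 7 to 1.60 in cluster 5, where it reached 12450 CPM. MMP2 was higher in 8 of 8 clusters (0.04 to 0.75, with 1 interval that held 0) and MMP9 in 8 of 8 (0.44 to 2.39, again with 1 interval that held 0, in cluster 7 on 9 and 11 UMIs). MMP1 was higher in the 7 clusters with enough UMIs for a ratio, with 5 intervals above 0. The share of thinned cells with MMP1 was larger in clusters 0 (0.903% and 3.92%) and 4 (1.46% and 3.93%). It was nearly the same in clusters 2 (4.17% and 4.26%) and 6 (2.21% and 2.58%). In cluster 7 the ratio rests on few cells, 2.17% of 92 control cells and 6.0% of 50 TGF-β1 cells. TIMP2 was lower in 7 of 8 clusters, and cluster 5 was the exception with a log2 ratio of 0.09 (0.03 to 0.14).

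TIMP3 and MMP14 did not differ in the same direction in every cluster. TIMP3 had log2 ratios from -1.26 to 0.07, with 5 intervals below 0 and 0 above. Its level was almost the same in both libraries in clusters 2, 4 and 5, with log2 ratios of 0.07, -0.02 and 0.00. MMP14 had 2 intervals above 0, 3 below and 3 that held 0. Cluster 7 stood apart, a small group of 92 control cells and 50 TGF-β1 cells led by CA4, HBA2, CGA and the cell cycle inhibitor CDKN1A, and it was left unnamed. It had the highest MMP2 level of all clusters, 653 CPM in the control cells and 670 CPM after TGF-β1, and the highest MMP shares, 14% and 7.80%. Its MMP14 level was 54.3 CPM in the control cells and 26.8 CPM after TGF-β1 (log2 ratio -1.02, -1.43 to -0.63), and its TIMP3 level was 49.7 and 20.7 CPM (-1.26, -1.73 to -0.82).

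**Figure D4:**
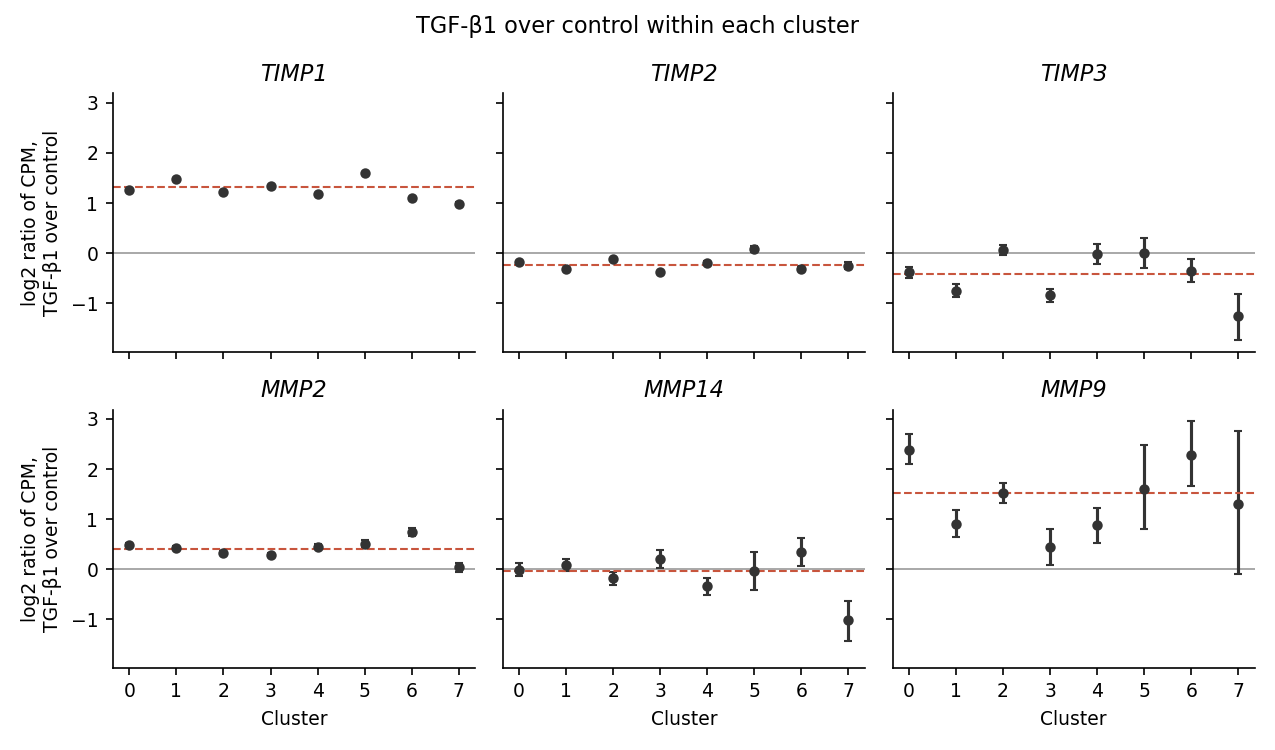
log2 ratio of CPM, TGF-β1 over control, of 6 members in each of 8 clusters (points, with exact 95% counting intervals as bars) and over all kept cells (dashed line). TIMP1 lies between 0.99 and 1.60 in every cluster, TIMP2 is below 0 in all but cluster 5, and MMP14 and TIMP3 are lowest in cluster 7.

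MMP1 and MMP9 were concentrated in few cells. The 10 cells with most UMIs of the gene held 56.7% of all MMP1 UMIs in the control library and 47.4% after TGF-β1, and 25.4% and 33.9% of all MMP9 UMIs, against 2.77% and 1.53% for TIMP1, which is far more abundant. Of the members with a similarly low level, MMP16 had 21.7% and 18.2% in its 10 richest cells, close to MMP9 in the control library, and MMP19 had 4.00% and 4.04%. The highest thinned cell had 27 MMP1 UMIs in the control library and 122 after TGF-β1, and 40 and 208 MMP9 UMIs. In the TGF-β1 library 1 and the same cell held both maxima, and the next highest in both genes, with 98 MMP1 and 120 MMP9 UMIs, was again a single cell. Without the 10 richest cells of each library, a choice made after seeing the data, the log2 ratio was 1.98 (1.76 to 2.21) for MMP1 and 1.34 (1.21 to 1.48) for MMP9, so both stayed over 2-fold higher after TGF-β1.

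Cells with at least 5 thinned UMIs of MMP1 or MMP9, a limit also chosen after seeing the data, were 14 of 3865 in the control library (0.362%, 0.198 to 0.607) and 50 of 4513 after TGF-β1 (1.11%, 0.823 to 1.46). Both genes reached 5 UMIs in 1 control cell and 11 TGF-β1 cells. Of the 29 TGF-β1 cells rich in MMP9, 20 (69.0%) also held MMP1, which was found in 2.90% of the 4484 cells not rich in MMP9. In the 50 TGF-β1 cells, the mean MMP2 level was 14.3 UMIs per thinned cell against 7.14 in the other cells, MMP14 2.30 against 0.400, and TIMP1 317 against 159, while TIMP2 differed little with 13.4 against 13.0. In the 14 control cells MMP2 was 18.5 against 5.52, MMP14 2.36 against 0.457, and TIMP1 215 against 63.5. TIMP3 went the other way, with 0.143 against 0.572 UMIs in the control library and 0.260 against 0.469 after TGF-β1. The cells rich in the rare proteases thus held more MMP2, MMP14 and TIMP1 in both libraries. They also held less TIMP3, though the value of the 14 control cells rests on very few UMIs. All of them held COL1A1 and none held PTPRC, and their median depth before thinning was 55768 UMIs in the control library and 36290 after TGF-β1, against 50289 and 43203 in the other cells. Of the control cells 10 of 14 lay in cluster 2, and of the TGF-β1 cells 18 of 50 (36.0%) lay in cluster 2, which held 16.8% of all control cells and 16.6% of all TGF-β1 cells. The 14 TGF-β1 cells in cluster 0 (28.0%) were near that cluster's share of 27.7%.

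**Figure D5:**
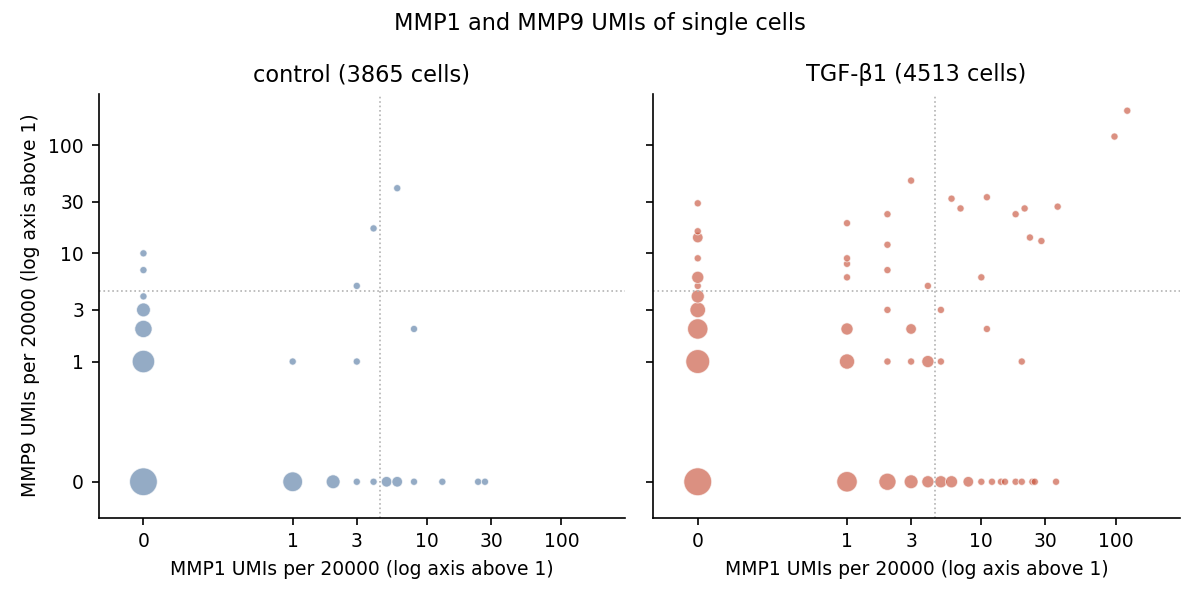
MMP1 and MMP9 UMIs of single cells after thinning to 20000 UMIs, on axes that are logarithmic above 1, for control (left) and TGF-β1 (right). Larger points stand for more cells and dotted lines mark 5 UMIs; 1 control cell and 11 TGF-β1 cells lie past both lines.

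Pearson's r of the log values was 0.13 over 3865 control cells and 0.37 over 4513 TGF-β1 cells for MMP1 with MMP9. It was 0.19 and 0.17 for MMP2 with MMP14, and 0.08 and 0.15 for TIMP1 with TIMP2. These are descriptions, as the cells of a library share its preparation. The 902 TGF-β1 cells with the most TIMP1 (median 306 UMIs) and the 903 with the least (median 54) had mean MMP2 levels of 7.51 and 7.20 UMIs, and MMP9 was found in 15.5% and 9.97% of them. TIMP1 thus varied widely from cell to cell at nearly the same MMP2.

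Among the 3055 genes whose mean reached 50 CPM, the gene most like TIMP1 over cells was S100A11, a small calcium-binding protein, with an r of 0.38 in the control library and 0.32 after TGF-β1. It was followed by the cytokine IL11 (0.31 and 0.26), IGFBP6, HTRA3 and CD63. For MMP2 the most similar genes were MGMT, a DNA repair enzyme (0.33 and 0.25), SFRP1, the fibroblast protease FAP, the proteoglycan DCN and BAX. This likeness is within each library. Between the libraries the log2 ratios of these genes were mixed, with -1.59 for MGMT, -1.18 for BAX, -0.23 for DCN, 0.00 for SFRP1 and 1.63 for FAP. For TIMP2 they were S100A11 (0.22 and 0.22), IGFBP6, CD99, MYL6 and ENSECAG00000039232, a gene without a symbol.

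Of 14 further MMP symbols, 4 (MMP7, MMP8, MMP26 and MMP27) had no UMI in either library and 2 had a mean of at least 1 CPM. MMP11, also named stromelysin-3, had 9.70 CPM without and 9.30 CPM with TGF-β1, in the control library more than MMP1, MMP9, MMP16 or MMP19, and MMP17, a membrane-type protease, had 1.46 and 0.947 CPM, with log2 ratios of -0.06 (-0.15 to 0.03) and -0.62 (-0.88 to -0.36).

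A list of 18 genes for the activation, inhibition and clearance of MMPs had 16 genes whose mean reached 1 CPM, of which 9 were higher and 6 lower after TGF-β1, with 8 intervals above 0 and 6 below and a median log2 ratio of 0.07. These interval counts were near the 39.5% and 42.2% of all genes, and past 2-fold were 1 higher and 2 lower of the 16, against 3.45% and 3.46% of all genes. Over 2-fold higher was 1 gene, SPOCK3, a testican of the matrix, with 5.31 and 12.6 CPM (log2 ratio 1.25), followed by SPOCK1 of the same family with 0.784 and 1.48 CPM (0.91). Over 2-fold lower were 2 genes. PLAT, the tissue plasminogen activator, had 28.7 CPM without and 10.4 CPM with TGF-β1 (-1.47), and CAV1, a coat protein of caveolae, had 101 and 39.0 CPM (-1.37). FURIN, a convertase that activates membrane-type proMMPs, had 14.2 and 19.4 CPM (0.45), and RECK, a membrane-anchored MMP inhibitor, had 12.1 and 13.6 CPM (0.17). Other genes of the list went the other way at higher levels. The convertase PCSK5 had 220 and 197 CPM (-0.15), and the protease inhibitor TFPI2 had 202 and 112 CPM (-0.85).

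KRT8 differed between the libraries, and the balance was also read in thinned control cells with and without it. The MMP share was 6.72% in the 986 control cells with a KRT8 UMI and 7.47% in the 2879 without one, against 4.51% in the TGF-β1 library. The TGF-β1 cells were not split by KRT8, and whether KRT8 had a part in the lower share was not tested. Among the thinned TGF-β1 cells, the 1788 with an IGFBP3 UMI had 8646 CPM of TIMP1 and a MMP share of 4.07%, and the 2725 without one had 7653 CPM and 4.83%. The 1031 TGF-β1 cells with an AREG UMI had less TIMP1 than the 3482 without one, 7417 against 8233 CPM, at MMP shares of 4.533% and 4.499%.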

How the data were processed

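The authors deposited for each library the UMI counts of every gene in every barcode called as a cell. Cell Ranger had made them on EquCab3.0 with Ensembl genes, in version 7.1.0 by the methods and the submitters' processing notes but 8.0.1 by the header of the file. The counts were whole numbers, with the study's filters on cells not yet applied, and those filters were applied here. The study's removal of doublets and assignment of cells to mares, both from the reads, and its edgeR 4.2.2 tests were not repeated. UMIs of the kept cells (210497250 and 219731144) were summed per library and scaled to CPM, and ratios carry no pseudocount. Thinning drew 20000 UMIs per cell without replacement. Counting intervals were exact (Clopper-Pearson), and UMIs, not reads, were counted. Clusters were rebuilt in Seurat 5.3.0 (R 4.3.3) with 2000 variable genes, of which 6 member rows were removed, canonical correlation integration, 30 dimensions and resolution 0.5, and are not the study's clusters. Python 3.11.15, numpy 2.4.6, scipy 1.17.1, pandas 2.3.3 and matplotlib 3.10.9 were used, and ratios, intervals and thinning were tested on simulated data. The members and lists were chosen with earlier results of these data known. The text names all members, for each other list the 2 most extreme log2 ratios of either sign among genes of 1 CPM or more, and the 5 genes most like MMP2, TIMP1 and TIMP2 over cells by the lower Pearson's r of both libraries. FURIN, RECK, PCSK5, TFPI2 and the MMP genes without UMIs were named after their values were seen. Alternatives changed the cells kept, scaling, cluster shares, limits, thinning, genes summed and clustering.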

Additional observations from a re-analysis of the deposited data

How the results depend on the processing

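No paired analysis was possible because the mare of each cell, which the study assigned from the reads, was not used here, and with 1 library per condition no replicate could be left out. In 7 alternatives of cells, scaling and cluster shares, no member changed the sign of its ratio, and 3 members stayed past 2-fold. MMP1 ranged from 1.65 to 2.08 and MMP9 from 1.48 to 1.78, the highest with the mean of per-cell CPM, and TIMP1 from 1.29 to 1.33. A size factor shifted every log2 ratio by 0.02. Of the 5 members with a mean of at least 10 CPM, 1 (TIMP1) was past 2-fold, since MMP1 and MMP9 then dropped out. Genes past 2-fold were 339 of 7658 (4.43%) at a mean of at least 10 CPM and 837 of 12116 at 1 CPM, and 970 passed a 1.5-fold limit at 10 CPM. Members in a larger share of cells were 4, but 2 without thinning (MMP1 and MMP9), and 3 with thinning to 10000 UMIs or another seed. The cause of these shifts was not tested.

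The difference of the pooled MMP share, -2.79 points, was -2.62 without thinning and, also unthinned, -2.62 with all barcodes, -2.61 with a UMI minimum of 10000, -2.63 with a mitochondrial limit of 6% and -2.62 without cells above the 98th percentile of UMIs. With thinning it was -2.96 with all MMP symbols listed and -3.20 as a mean over cells, and the cause of these shifts was not tested. The difference reversed to 9.41 without TIMP1, which held most TIMP UMIs, and, in a choice made after seeing the data, to 8.86 for MMP2 and TIMP2 alone. The share was lower in 5 of 5 clusters at resolution 0.3 and in 11 of 11 at 0.8. Without integration the libraries formed separate clusters, and the share was lower in the 1 cluster with 50 cells of each. Depth limits TIMP4 and MMP16, and MMP1 in some clusters.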

Other observations

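The cells with at least 5 thinned UMIs of MMP1 or MMP9 also differed from the others in further genes, 1 of them the member MMP14. These genes were picked from the same cells after their values were seen, as those found in at least 1 in 3 of such cells in both libraries and ranked by the lower of the ratios of both, and the values are a description without a test. KCNE3, a potassium channel subunit, was found in 6 of the 14 control cells (42.9%) against 1.87% of the other control cells, and in 32 of the 50 TGF-β1 cells (64.0%) against 10.1%. FAM216B was found in 57.1% against 3.19% in the control library and 70.0% against 30.1% after TGF-β1. GPNMB, a membrane glycoprotein, was found in 57.1% against 12.7% and in 36.0% against 7.55%, and the fibrillar collagen gene COL24A1 in 35.7% against 2.80% and in 42% against 12.0%. The growth factor FGF7 was found in 42.9% against 29.2% and in 56.0% against 24.6%, with a mean of 3.36 against 0.669 UMIs and 3.04 against 0.542 UMIs. C1QTNF12, CACHD1, PLXDC1, PRXL2A and MMP14 were the others among the 10 genes. Whether these cells came from 1 mare or from several was not tested.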
